A study of Sus scrofa with 2 samples.

Results

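The BCL2 family, whose proteins decide at the mitochondrial outer membrane whether a cell goes into apoptosis, was represented on the EMPV1 porcine embryo array by 9 genes and 13 probes. The members were taken as every probe whose gene symbol in the platform annotation was BCL2, BCL2L1, BCL2L10, BAX, BAK1, BAD, BID, BCL2L11 or BNIP3L, out of 11938 named genes, 18121 probes with a gene symbol and 43794 probes in all. Of the members, 6 had 1 probe, 2 had 2 probes (BCL2L11 and BNIP3L) and 1 had 3 probes (BID). RNA came from 2 single cumulus-oocyte complexes (COC), labelled COC7 and COC4, both of the Large White breed and aspirated from the follicles of gilt ovaries collected at a slaughterhouse. A COC is an oocyte with its coat of somatic cumulus cells, and each COC was extracted and amplified by itself. No treatment or genotype separates the COCs in the labels. On array 1 COC7 was labelled with Cy5 and COC4 with Cy3, and on array 2 the same RNAs carried the exchanged dyes, so the arrays are technical repeats and each COC is 1 sample.

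In mammals the family falls into classes by role. Pro-survival proteins hold the effectors BAX and BAK1 in check, the effectors once active form pores that release cytochrome c, and BH3 proteins carry a stress signal by binding either class. In the ovary the family is known for its part in the loss of germ cells and in the death of granulosa cells as follicles regress.

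The deposited values are log2 ratios of one dye over the other. To follow the COC and not the dye, array 2 was multiplied by -1 (turned), and the mean of both arrays after this step is given below as the turned mean, with ± for the distance of either array from it. The mean of both arrays as deposited, in which the COCs cancel, is called the dye part. With 1 array for each orientation of the dyes it also holds the error of single arrays, and these parts cannot be told apart. By construction that distance equals the size of the dye part, and a probe keeps its sign on both arrays only where its turned mean is larger than its dye part. A value above 0 means more signal from COC7 than from COC4 if the ratios are Cy5 over Cy3, an order taken from the channels of the labels alone, since the sources used here do not state it. If the ratios run the other way, every sign below turns together. All 10 spike-in RNAs kept their sign on both arrays as deposited, so both arrays run the same way. With 1 COC on each side there were no degrees of freedom, no test was made, and no value says how COCs vary. A ratio carries no level, so neither the labelled tissue nor the presence of a transcript could be checked from the ratios. The study lists the spots above background in COC, but that list was not used here, so detection of the members was not checked. In whole complexes, fewer cells of a type and less RNA per cell cannot be told apart.

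Over all 43794 probes the turned mean had an SD of 0.19 and the dye part an SD of 0.25, and the turned ratios of array 1 and array 2 had a Pearson r of -0.268 across probes, which are not independent. As deposited, the medians were 0.0030 on array 1 and 0.0014 on array 2. In 153 negative control spots, which match no porcine transcript, the central 95% of turned means ran from -0.20 to 0.17. Of the 13 member probes, 9 had a turned mean outside this range, as did 21.3% of all probes. Among the 9 were BCL2, BCL2L1 and EMPV1_16110 of BNIP3L, whose arrays differed in sign. Every probe of BID and of BNIP3L was also among them, so the 9 are not separate genes. The control spots spread less in the dye part than all probes, with an SD of 0.13 against 0.25. A place outside their range therefore does not set a probe apart from the error of single arrays. Of 8 oocyte markers 6 had a turned mean above 0, with a median of 0.20 and a range of -0.098 to 0.70, but only 3 kept their sign on both arrays, ZAR1 at 0.70, FIGLA at 0.56 and NPM2 at 0.47, and the median was -0.095 on array 1 and 0.52 on array 2. Of 12 cumulus and granulosa markers 11 lay below 0 and 8 kept their sign on both arrays, with a median of -0.50 and a range of -1.28 to 0.32, and the median was -0.57 on array 1 and -0.73 on array 2. TNFAIP6, VCAN and NR5A2, genes of cumulus and granulosa cells, had turned means of -1.28, -1.10 and -1.12. Of the markers of blood cells 2 of 5 were measured, at 0.0034 and -0.017, and of the markers of theca, stroma and vessel 5 of 6 were measured, 4 of them below 0, with RGS5, a pericyte gene, lowest at -2.13 and DCN, a stromal gene, at -0.39. The part of the cell makeup in the values below was not tested.

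The family was first counted by rules applied alike to the members and to all probes, each count beside the share of all probes. None of the 13 probes (0) reached 2-fold by its turned mean, a fold the study used for these arrays, where 0.174% of all probes did. The sign was kept on both arrays by 7 of 13 member probes, 3 of them probes of BID, against 37.1% of all probes. A smaller threshold, a turned mean at least 0.32 from 0 with arrays of equal sign, was met by 3 of 13 member probes, against 6.20% of all probes. This threshold was chosen with earlier results known and in the range of the member values, so its count describes the members and tests nothing. None (0) of the 3 probes was above 0, where 3.16% of all probes were. All 3 were below 0, where 3.04% of all probes were, and they are the 3 probes of BID, measured on the same RNAs. By gene, BID alone met the threshold, below 0, where 3.21% of all named genes did. The median over the 9 genes was 0.0091, with 5 genes above 0 and 4 below, beside a median of 0.0062 over all 11938 named genes, of which 6212 lay above 0.

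**Figure D1:**
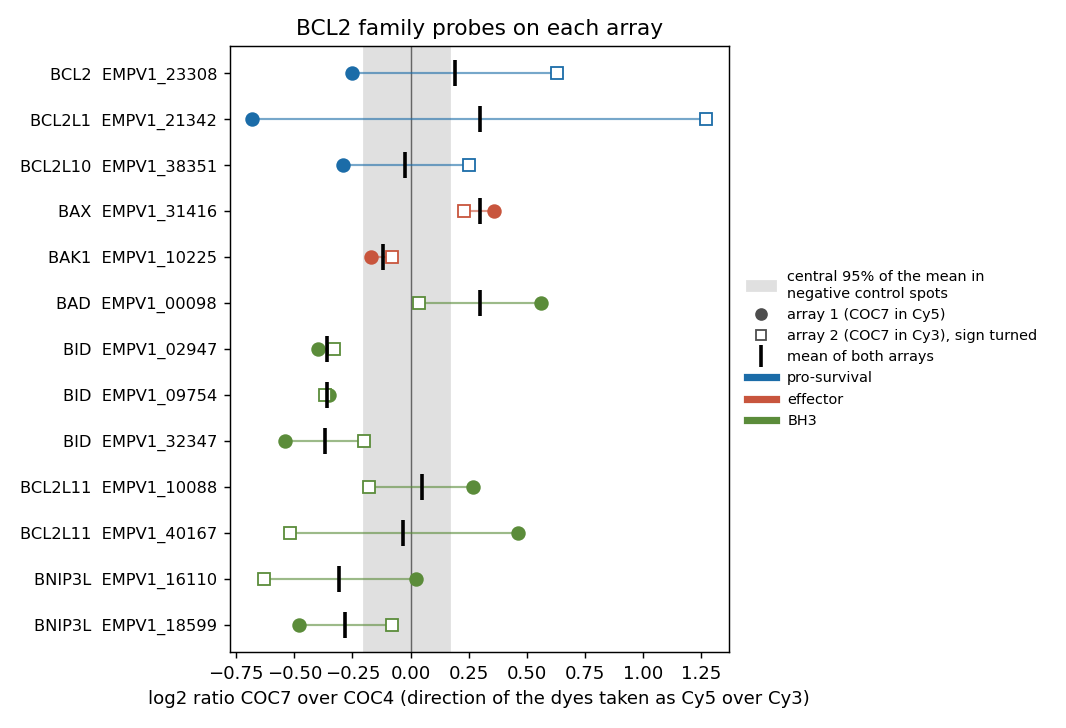
Log2 ratio (x axis) of each of the 13 BCL2 family probes (y axis) on array 1 (filled circles) and, after turning, on array 2 (open squares), with the mean of both (black bars). The grey band is the central 95% of turned means in negative control spots, -0.20 to 0.17. The circles and squares of the 3 pro-survival genes lie on opposite sides of 0, while those of BAX, BAK1, BAD and the 3 BID probes lie on 1 side.

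In the plot of the ratios by array, all 3 pro-survival genes had opposite signs on the arrays, which is the more common case, since 37.1% of all probes kept their sign. BCL2, the founding member, which holds BAX and BH3 proteins at the mitochondrion, read -0.25 on array 1 and 0.63 on array 2 after turning. Its turned mean was 0.19 ± 0.44 (distance of either array from the mean, n = 2 arrays), and its dye part of -0.44 was larger in size than that of 92.7% of all probes. The arrays thus disagreed on the direction of BCL2.

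BCL2L1, which encodes BCL-XL, the pro-survival protein that mouse germ cells need to survive in the fetal gonad, had the widest spread of all member probes. It read -0.68 on array 1 and 1.27 on array 2, past 2-fold on array 2 by itself. Its turned mean was 0.30 ± 0.97. Its dye part of -0.97, or 1.96-fold, was larger in size than in 99.7% of all probes and may hold the error of a single array. The direction of BCL2L1 between COC7 and COC4 was therefore not settled by these arrays, although its turned mean exceeded that of 91.0% of all probes in size.

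BCL2L10, a member of the family that in mammals is abundant in the oocyte, read -0.29 on array 1 and 0.25 on array 2. The turned mean was -0.023 ± 0.27, inside the range of the negative control spots, and smaller in size than in all but 14.6% of probes. The dye part of BCL2L10 was -0.27.

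All 3 pro-survival genes were thus below 0 on array 1 and above 0 on array 2 after turning, and below 0 on both arrays as deposited. Their median was -0.29 on array 1, 0.63 on array 2 and 0.19 for the turned mean, with a median dye part of -0.44. Among all named genes 51.8% had a dye part below 0, with a median of -0.0075. Dye parts below 0 were also found in 7 of 8 oocyte markers, with a median of -0.37, and in 4 of 12 cumulus and granulosa markers, with a median of 0.33. Among these 4, however, were the most negative dye parts of all markers, -1.83 in INHA and -1.74 in FST.

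The effectors kept their sign on both arrays. BAX, which moves from the cytosol to the mitochondrion to form pores, read 0.36 on array 1 and 0.23 on array 2. Its turned mean was 0.30 ± 0.067, a 1.23-fold difference on the positive side, larger in size than in 91.0% of all probes, and its dye part was only 0.067. BAX was short of the 0.32 threshold.

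BAK1, the effector that sits in the mitochondrial outer membrane before any signal, read -0.17 on array 1 and -0.079 on array 2. The turned mean of -0.12 ± 0.044 was a 1.09-fold difference on the negative side and lay within the range of the negative control spots. BAX and BAK1 therefore stood on opposite sides of 0: BAX exceeded BAK1 by 0.53 on array 1 and 0.31 on array 2, and by 0.42 in the turned mean. The median of the effectors, 0.087, describes neither gene.

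**Figure D2:**
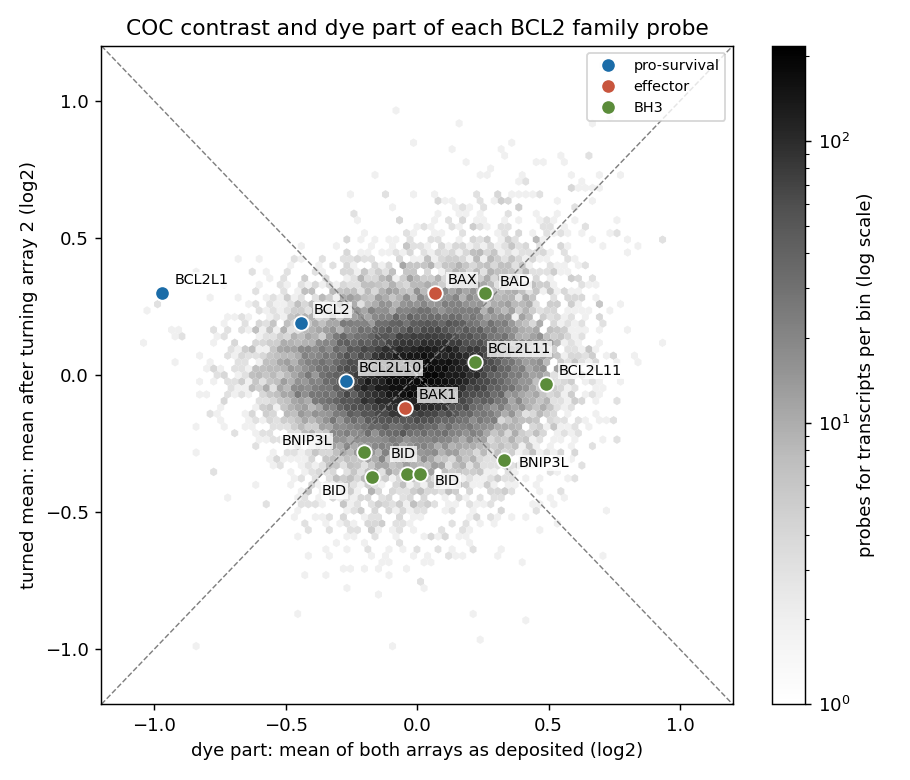
Turned mean (y axis, log2) against dye part (x axis, log2) of the 13 BCL2 family probes, coloured by class, over all transcript probes within 1.2 of 0 on both axes (grey bins, log scale of counts). Between the dashed diagonals to the left and right the dye part is the larger, which holds for 6 member probes, with BCL2L1 farthest to the left at -0.97.

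The BH3 genes split among themselves. BAD, which binds and occupies BCL2 and BCL-XL until its phosphorylated form is held by 14-3-3 proteins, read 0.56 on array 1 and 0.038 on array 2. The turned mean was 0.30 ± 0.26, a 1.23-fold difference, with a dye part of 0.26. Nearly all of the value of BAD thus came from array 1, and both arrays lay above 0.

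BID, which is cut by caspase 8 and carries the death receptor signal to the mitochondrion, had the turned mean farthest from 0 in the family. Probe EMPV1_02947 read -0.40 on array 1 and -0.33 on array 2, with a turned mean of -0.36 ± 0.038. Probe EMPV1_09754 read -0.35 on array 1 and -0.37 on array 2, with a turned mean of -0.36 ± 0.012. Probe EMPV1_32347 read -0.54 on array 1 and -0.20 on array 2, with a turned mean of -0.37 ± 0.17. All 6 readings were below 0, and each of the 3 turned means exceeded at least 93.9% of all probes in size. Averaged over its probes, BID read -0.43 on array 1 and -0.30 on array 2, and the turned mean of -0.37 ± 0.065 was a 1.29-fold difference on the negative side.

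BCL2L11, which encodes BIM, a BH3 protein able to bind every pro-survival member, had opposite signs on the arrays at both of its probes. Probe EMPV1_10088 read 0.27 on array 1 and -0.18 on array 2, and the turned mean was 0.049 ± 0.22. Probe EMPV1_40167 read 0.46 on array 1 and -0.52 on array 2, and the turned mean was -0.031 ± 0.49, with a dye part of 0.49 that exceeded 95.1% of all probes in size. Both turned means were inside the range of the negative control spots, and the gene averaged 0.0091 ± 0.36. The dye parts of BCL2L11 had the opposite sign to those of the pro-survival genes.

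BNIP3L, also called NIX, a BH3-like protein of the outer membrane that marks mitochondria for removal by mitophagy, lay below 0 on average, with probes that differed by array. Probe EMPV1_16110 read 0.021 on array 1 and -0.63 on array 2, and the turned mean was -0.31 ± 0.33. Probe EMPV1_18599 read -0.48 on array 1 and -0.081 on array 2, and the turned mean was -0.28 ± 0.20. The probes had dye parts of opposite sign, 0.33 and -0.20, and only EMPV1_18599 kept its sign on both arrays. Averaged over probes, BNIP3L read -0.23 on array 1 and -0.36 on array 2, with a turned mean of -0.29 ± 0.064, a 1.23-fold difference on the negative side. The small distance of 0.064 arose because the dye parts of the probes offset each other in the average. Neither probe had arrays that close by itself.

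Over the 4 BH3 genes the median turned mean was -0.14, with 2 genes above 0 and 2 below. It was 0.069 on array 1 and -0.32 on array 2. Over the 8 BH3 probes the median was -0.29, since BID and BNIP3L, both below 0, hold 5 of the probes. Of these 8 probes 5 kept their sign on both arrays, where 37.1% of all probes did, and 3 of the 5 are probes of BID.

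Several members lay close to the 0.32 threshold. At 1.2-fold, again with arrays of equal sign, 6 of 13 member probes were counted, against 8.82% of all probes. On the positive side were 2 of these, BAX and BAD, where 4.56% of all probes were counted. On the negative side were 4, the 3 probes of BID and EMPV1_18599 of BNIP3L, where 4.27% of all probes were counted. BCL2L1 and EMPV1_16110 of BNIP3L had turned means as large in size, 0.30 and -0.31, and missed the count because their arrays differed in sign. The 1.2-fold limit also lies in the range of the member values, and the probes of BID measure the same RNAs. Its counts therefore describe the members and test nothing.

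Differences between members within an array remove any shift common to the probes of that array, and the pairs below were chosen after the values were seen. BAX exceeded BID by 0.79 on array 1 and 0.53 on array 2, which averaged 0.66 on the log2 scale. BAX exceeded BNIP3L by 0.59 on array 1 and 0.59 on array 2. The value of BNIP3L is a mean of probes with dye parts of opposite sign, 0.33 and -0.20. The equal differences therefore hold for neither probe by itself. BAD exceeded BID by 0.99 on array 1 and 0.34 on array 2. That both arrays share a direction here was fixed by the choice of members on opposite sides of 0. BCL2L1 minus BID, in contrast, was -0.25 on array 1 and 1.57 on array 2.

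The balance of an effector and a pro-survival gene, often read as a BAX to BCL2 ratio, did not have one direction. BAX minus BCL2 was 0.61 on array 1 and -0.40 on array 2, with a mean of 0.11. BAX minus BCL2L1 was 1.04 on array 1 and -1.04 on array 2, with a mean of 0.00044. BAD minus BCL2L1, a BH3 protein and its partner, was 1.24 on array 1 and -1.23 on array 2. In each of these 3 pairs the array chosen sets the sign. BCL2 and BCL2L1 already had opposite signs on the arrays, so this adds nothing on the balance between the COCs.

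The members with several probes allowed a look at how far probes of 1 gene lay apart. For BID the highest and the lowest turned mean differed by 0.017, against a median of 0.21 over 921 genes with 3 probes. Only 1 of these genes, 0.109%, had a smaller range, and it was TNFRSF1A, a death receptor, with turned means of -0.096, -0.11 and -0.11. The dye parts of the BID probes ranged more widely, over 0.18 against a median of 0.31.

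For BNIP3L the turned means of its probes differed by 0.025, against a median of 0.13 over 1787 genes with 2 probes, and 9.29% of these had a smaller range. The dye parts of BNIP3L differed by 0.53, and 89.9% of these genes had a smaller range of dye parts. For BCL2L11 the turned means differed by 0.081, with a smaller range in 32.4% of these genes. In all 3 members the probes lay closer in the turned mean than in the dye part, as they did in the median over all genes with 2 probes, 0.13 against 0.19, and with 3 probes, 0.21 against 0.31. Whether the probes of a gene overlap in sequence was not checked.

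**Figure D3:**
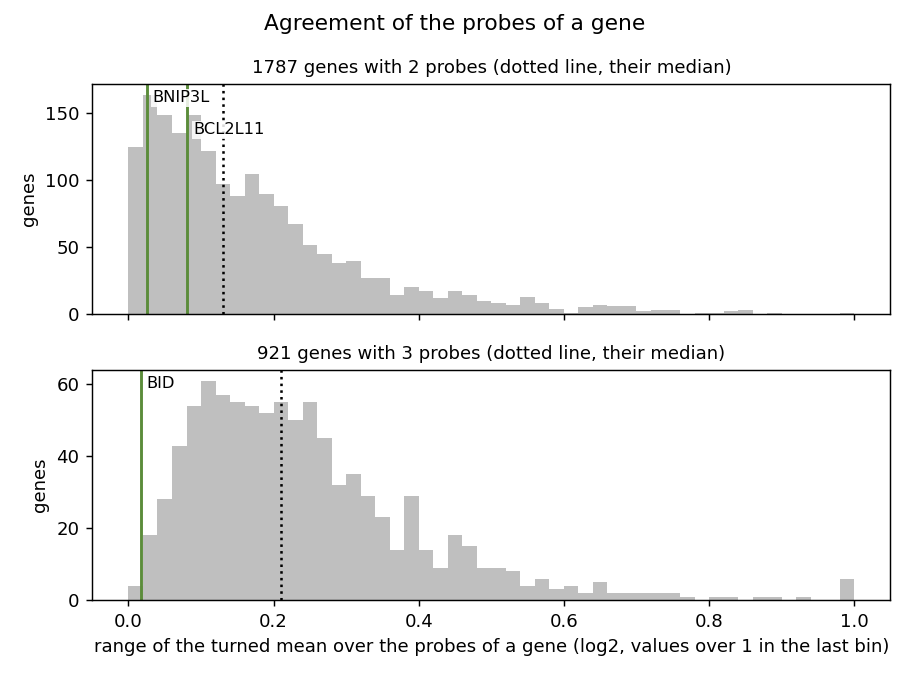
Number of genes (y axis) by the range of the turned mean over the probes of a gene (x axis, log2), for 1787 genes with 2 probes (upper panel) and 921 genes with 3 probes (lower panel). Green lines mark BNIP3L at 0.025, BCL2L11 at 0.081 and BID at 0.017, all to the left of the dotted medians of 0.13 and 0.21.

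Other genes of the pathway were taken from lists by role, with the probes of a gene averaged. Over all named genes, 3.64% met the 0.32 threshold above 0 with arrays of equal sign, and 3.21% met it below 0. Of 14 other BCL2 family genes 8 were named on the array, 3 above 0 and 5 below, and none (0) met that threshold, with a median of -0.039. Of these 8 genes 7 had a dye part below 0. MCL1, a pro-survival protein with a short life in the cell, read -0.32 on array 1 and -0.33 on array 2, a turned mean just short of the threshold. Its 3 probes did not agree: the turned means were -0.54 for EMPV1_03022 and -0.49 for EMPV1_00680 but 0.063 for EMPV1_00335. BCL2L12 and BCL2L13 lay near 0, with turned means of 0.070 and 0.069.

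Downstream of the effectors, 14 of 18 genes of the apoptosome and the executioner caspases were named, 8 above 0 and 6 below, with a median of 0.047. The threshold was met by 2 genes above 0 and 2 below. APAF1, the scaffold of the apoptosome, read 0.64 on array 1 and 0.096 on array 2, with a turned mean of 0.37 ± 0.27. CASP6, an executioner caspase, read 0.64 on array 1 and 0.022 on array 2, with a turned mean of 0.33 ± 0.31, and CASP9, the initiator caspase that APAF1 recruits, had a turned mean of 0.16. Below 0 were DIABLO, which is released with cytochrome c and relieves caspases of their inhibitors, at -0.33 ± 0.044, and DFFA, the inhibitor of the apoptotic nuclease, at -0.37 ± 0.20. CYCS, the gene of cytochrome c, read -0.35 on array 1 and -0.14 on array 2. APAF1 and CASP6 rested mostly on array 1, as BAD did.

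Upstream of BID, 8 of 11 genes of the death receptor route were named, 2 above 0 and 6 below, with a median of -0.057, and none (0) met the threshold. CASP8, the protease that cuts BID, read -0.12 on array 1 and -0.10 on array 2, and TNFRSF1A, over its probes, read -0.10 on array 1 and -0.11 on array 2. The probes of TNFRSF1A did not agree by array: EMPV1_03524 read -0.26 on array 1 and 0.071 on array 2, while EMPV1_03838 read 0.17 on array 1 and -0.38 on array 2. Both genes had turned means closer to 0 than that of BID.

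Among binding partners and regulators of the members, 19 of 24 genes were named, 9 above 0 and 10 below, with a median of -0.057. None (0) of them met the threshold above 0 and 3 met it below. VDAC2, the outer membrane channel that binds BAK1, read -0.22 on array 1 and -1.06 on array 2, with a turned mean of -0.64 ± 0.42, a 1.56-fold difference. The 14-3-3 genes YWHAZ and YWHAE had turned means of -0.46 ± 0.068 and -0.41 ± 0.16. SFN, a 14-3-3 gene of epithelial cells, lay on the other side, with 0.24 on array 1 and 0.36 on array 2. The other measured 14-3-3 genes, YWHAB, YWHAH and YWHAQ, had opposite signs on the arrays. The measured 14-3-3 genes thus did not share a direction.

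Beside BNIP3L, 10 of 12 genes of mitophagy were named, 6 above 0 and 4 below, with a median of 0.068, and none (0) met the threshold. MAP1LC3A, an LC3 protein to which mitophagy receptors bind, read 0.38 on array 1 and 0.22 on array 2. SQSTM1, an adaptor that links cargo to LC3, had a turned mean of 0.21, and RHEB, which binds BNIP3L, one of 0.19 ± 0.13. These 3 genes lay on the side of 0 opposite to BNIP3L.

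**Figure D4:**
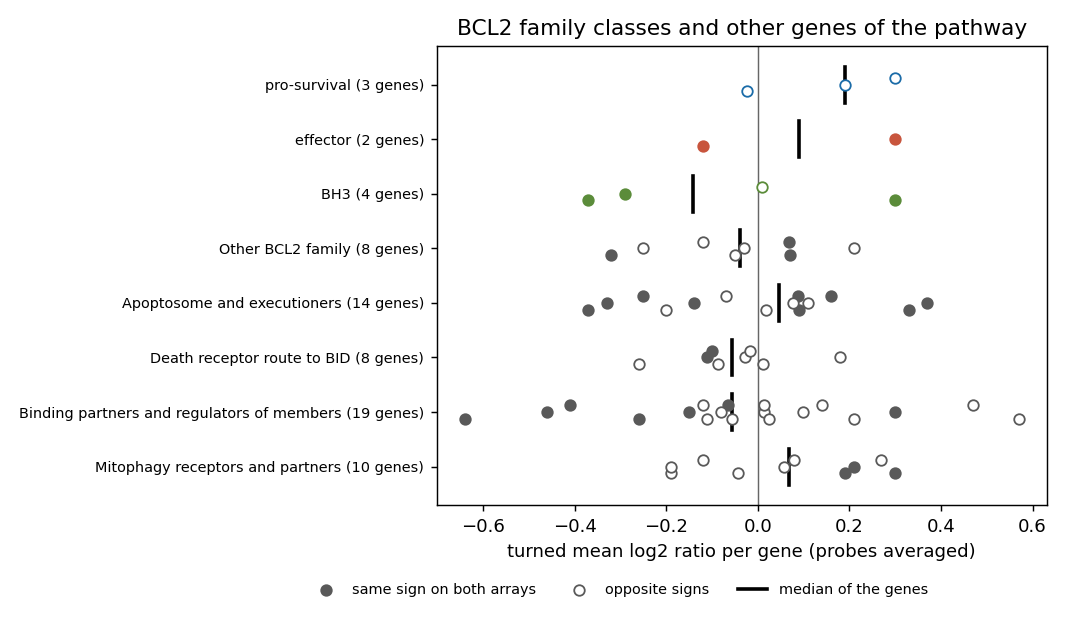
Turned mean per gene (x axis, log2, probes averaged) for the 3 classes of BCL2 family members and 5 lists of other genes of the pathway (y axis), with filled points for genes that kept their sign, open points for opposite signs and black bars for medians. The medians of the 5 lists lie between -0.057 and 0.068, and the 3 pro-survival points are all open.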

How the data were processed

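The array values were log2 ratios computed and deposited by the authors after amplification of the RNA, reading and background subtraction in GenePix Pro, normalization, and limma in FlexArray. The kind of normalization, the direction of the ratio and the base of the logarithm were not stated in the sources at hand, and base 2 was read from the 2-fold lines of the study's contrast plot. Both deposited tables hold the same values for 43794 probes. The columns of the table with 45220 spots, of which 1426 are control or other spots, were assigned to array 1 and array 2 by these equal values, and member probe names were matched the same way.

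Gene names came from the platform annotation. Probes were averaged per gene. The 9 members and the lists were chosen with earlier results of these data known. Every member probe was named, and of each list the 3 genes farthest from 0 on each side were named among those whose sign held on both arrays. The alternatives were each array alone, centring on the median of all probes or of negative control spots, other folds and members left out. Removal of a running median over neighbouring rows of the table was added after seeing the data. Scripts ran in Python 3.11.15 with numpy 2.4.6, pandas 2.3.3 and matplotlib 3.10.9. Only the split into turned mean and dye part was checked on simulated data. Spot intensities were not used here, so the precision is known only from 2 arrays.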

Additional observations from a re-analysis of the deposited data

How the results depend on the processing

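The count of member probes past 2-fold, 0 with both arrays, was 1 (BCL2L1) with array 2 alone, 0 with array 1 alone and 3 with the smaller threshold of 0.32 (log2) in its place. The count at 0.32 with arrays of equal sign, 3, was 0 at 1.5-fold and 6 at 1.2-fold. Centring each array on its median and removing a running median over neighbouring rows, an alternative chosen after seeing the data, each gave 3 probes at 0.32 and 7 probes of equal sign. The median of the pro-survival genes, 0.19, was -0.29 with array 1 alone and 0.63 with array 2 alone, and between 0.084 and 0.24 with 1 member left out. The median of the effectors, 0.087, was 0.099 with array 1 alone and 0.075 with array 2 alone. The median of the BH3 genes, -0.14, was 0.069 with array 1 alone, -0.32 with array 2 alone, -0.29 over probes or without BAD or BCL2L11, and 0.0091 without BID or BNIP3L. The turned means of single member probes moved by at most 0.032 and with 0 changes of sign under centring, the other table or the running median, while 6 of 13 probes changed sign between the arrays. No paired analysis was possible because 1 COC stands on each side. Spot intensities were not used here, so the values are not weighed by signal over background.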
